A study of Mus musculus with 11 samples.

Results

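The genes described here are Id1, Id2, Id3, Id4, Smad1, Smad5, Smad6, Smad7, Bmpr1a and Bambi, which are part of the BMP pathway from its receptor to its target genes. They were followed on all probe sets of the array that the platform annotation gives exactly 1 gene symbol, that symbol being one of these 10 genes. This rule found 24 probe sets among the 34945 with 1 symbol, for 10 of the 18193 genes these cover, and each is reported apart. The samples were keratinocytes from the back skin of K5-myrAkt(L84) transgenic mice, in which a membrane-bound, active form of the kinase Akt is driven by the promoter of keratin 5, a gene of basal keratinocytes. The cells were labelled with an antibody against CD34, a surface marker of the hair follicle bulge, and separated with magnetic beads into CD34+ cells (5 arrays) and CD34- cells (6 arrays). Both fractions carry the transgene, no fraction without it was analysed here, and the labels give no age. The CD34- samples carry a cell type label that also names follicle stem cells. Whether each array stands for its own mouse is not said in the labels, and the p-values therefore speak only for the spread among these arrays, which may be technical.

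Bone morphogenetic proteins (BMPs) are secreted ligands that bring type I receptors, such as Bmpr1a, together with type II receptors. The active type I receptor phosphorylates Smad1, Smad5 and Smad9, which enter the nucleus with Smad4 and switch on target genes, of which the Id genes are the best known. Id proteins bind basic helix-loop-helix factors and keep them from DNA. Smad6 and Smad7 are inhibitory Smads that block the receptors or the signal-carrying Smads, and Bambi is a decoy receptor without a kinase domain. In the hair follicle BMP signalling is known for keeping bulge stem cells at rest, and loss of Bmpr1a in skin epithelium is known to activate them and to block hair differentiation.

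Each array gave 1 log2 signal per probe set, and no array was identical to another. Cd34 itself, with a log2 signal of 11.83 ± 1.17 (SD, n = 5) in CD34+ and 4.20 ± 1.57 (SD, n = 6) in CD34- cells, did not overlap between fractions, and Krt5 was bright in both (difference -0.07, SE 0.13). Its call is no finding, since the cells were sorted on it. Of the 7 other bulge genes listed as markers, 6 were called higher in CD34+ cells, and Krt15 was not called (0.47, SE 0.16). The actin ratio compares, on the log2 scale, the actin control near the end of the transcript with the one near its start, and is higher for shortened RNA or copies. It was 2.91 to 5.25 on CD34+ and 2.19 to 2.76 on CD34- arrays, with the highest value on CD34+ array 1. The ratio did not overlap between fractions, so that its effect and that of the fraction cannot be fully told apart.

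The fractions were compared with limma on the log2 values of every probe set, and a probe set was called at a Benjamini-Hochberg adjusted p under 0.05. The dimmest 40% of probe sets were left out, and 23 of the 24 member probe sets were tested among 20967. A positive log2 difference means a higher signal in CD34+ cells. Of the 23 tested, 8 were called higher, 2 lower and 13 were not called. Over all tested probe sets 11.0% were called higher and 9.77% lower, 20.7% in either direction. The arrays did not overlap for 7 member probe sets that were higher and 1 that was lower, against 7.20% and 6.20% of all tested. The median difference was 0.54 over the 23 members and 0.02 over all tested. The members were chosen with earlier results of these data known, so these shares and medians describe the set and do not test it. The calls fell unevenly over the pathway. The 4 Id genes held 6 of the 8 higher calls, all 8 of their probe sets having a positive difference, with a median of 1.15. The other 6 genes had 15 tested probe sets with a median difference of 0.13, of which 2 were called higher and 2 lower.

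**Figure D1:**
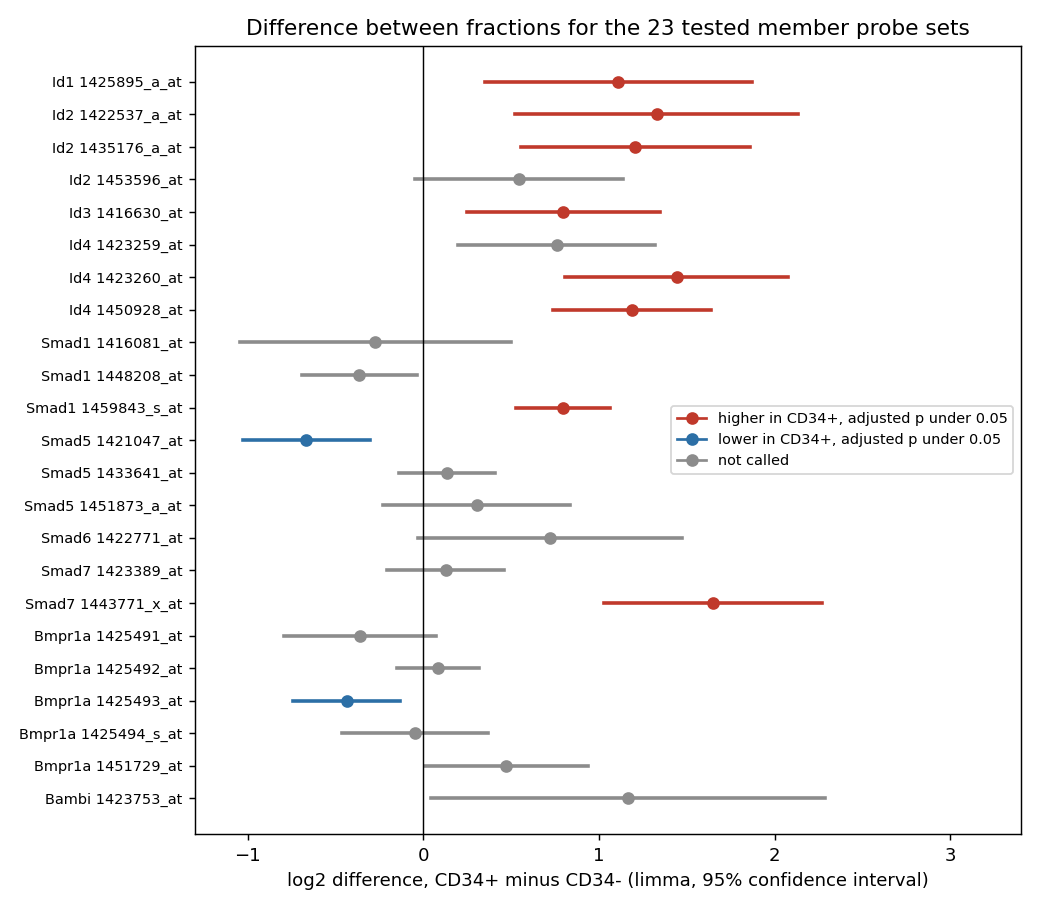
Log2 difference between CD34+ (5 arrays) and CD34- (6 arrays) cells for each of the 23 tested member probe sets, with the limma 95% confidence interval (x axis) and the probe sets by gene (y axis). All 8 Id probe sets lie to the right of 0, while those of Smad1, Smad5 and Bmpr1a lie on both sides of it.

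Id4, an Id gene known from neural and epithelial precursor cells, had the smallest p among the Id probe sets. On probe set 1450928_at the log2 signal was 12.41, 11.22, 10.91, 11.64 and 11.54 on CD34+ arrays 1 to 5 and ran from 10.11 to 10.55 on CD34- arrays, with a median of 10.34. Every CD34+ array was above every CD34- array, and CD34+ array 1 was the highest. The difference was 1.19 (SE 0.21, limma adjusted p = 0.00212), a fold of 2.28. The dimmer 1423260_at went the same way, with 9.81, 9.69, 8.55, 9.04 and 8.19 on CD34+ arrays 1 to 5 and 6.90 to 8.04 (median 7.61) on CD34- arrays. These did not overlap either, though the lowest CD34+ array came close to the highest CD34- array. The difference was 1.44 (SE 0.30, limma adjusted p = 0.0051). The remaining probe set, 1423259_at, had 11.13 on CD34+ array 1 and 9.56 to 10.31 on the other 4, against 8.86 to 9.81 on CD34- arrays, so that CD34+ arrays 2 and 3 lay inside the CD34- range. Its difference of 0.76 (SE 0.26, limma adjusted p = 0.0525) was not called. It was called on leaving out CD34+ array 2 (limma adjusted p = 0.034) or CD34+ array 3 (limma adjusted p = 0.0318). Without CD34+ array 1 the difference fell to 0.52. Over all fits that left out 1 array the limma adjusted p was at most 0.108.

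Id2, which is known as a BMP target and also as a factor of lymphoid and Langerhans cells, was called on 2 of its 3 probe sets. On the brightest, 1435176_a_at, the log2 signal was 13.94, 11.78, 11.86, 12.29 and 12.81 on CD34+ arrays 1 to 5. The 6 CD34- arrays lay close together, from 11.00 to 11.66 with a median of 11.32, below every CD34+ array. The difference was 1.21 (SE 0.30, limma adjusted p = 0.0145), a fold of 2.31, and the SD was 0.88 in CD34+ against 0.21 in CD34- cells. On 1422537_a_at the CD34+ arrays gave 8.79, 7.21, 7.22, 8.13 and 7.30 and the CD34- arrays 5.15 to 7.06 (median 6.59), again without overlap. That difference was 1.33 (SE 0.38, limma adjusted p = 0.0245), and it lost its call without CD34+ array 4 (limma adjusted p = 0.0528). Its call was also lost after quantile normalization (0.95, limma adjusted p = 0.123) and with equal medians (0.85, limma adjusted p = 0.0842). That of 1435176_a_at was kept after quantile normalization (1.26, limma adjusted p = 0.00816) and lost with equal medians (0.73, limma adjusted p = 0.0785). Probe set 1453596_at differed by 0.54 (SE 0.28, limma adjusted p = 0.171), with 6.60 to 7.68 on CD34+ and 5.93 to 7.09 on CD34- arrays.

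Id1 and Id3, which are known as immediate BMP targets in many cell types, have 1 probe set each. For Id3 (1416630_at) the log2 signal was 11.22, 9.62, 9.77, 9.87 and 9.62 on CD34+ arrays 1 to 5 and 8.97 to 9.58 (median 9.15) on CD34- arrays. The fractions did not overlap, but 4 of the CD34+ arrays lay only just above the CD34- range and CD34+ array 1 stood far above all others. The difference was 0.80 (SE 0.26, limma adjusted p = 0.0405), and 0.50 (limma adjusted p = 0.0319) without CD34+ array 1. The call was lost without CD34+ array 4 and without any one of CD34- arrays 2 to 6, with adjusted p of at most 0.0802. For Id1 (1425895_a_at) the signal was 9.76, 8.62, 9.27, 8.61 and 8.36 on CD34+ arrays and 6.63 to 8.85 (median 7.86) on CD34- arrays. Here 2 of the 5 CD34+ arrays were above every CD34- array and the other 3 fell below CD34- array 3. The difference was 1.11 (SE 0.36, limma adjusted p = 0.0401), a fold of 2.16, and the call was lost on leaving out CD34+ array 1, 2 or 3 or CD34- array 2, 4 or 6, with adjusted p of at most 0.0795. The calls of Id1 and Id3 were both lost after quantile normalization (limma adjusted p = 0.0781 and 0.0564), with equal medians (0.165 and 0.34) and with no intensity trend (0.056 and 0.0581), and that of Id1 with array weights (0.12). Of the 8 Id probe sets 3 were called after quantile normalization, 2 with equal medians and 4 with no intensity trend. Of all 20967 tested, 1400, 675 and 2292 were called higher in these 3 fits, against 2296 as reported.

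**Figure D2:**
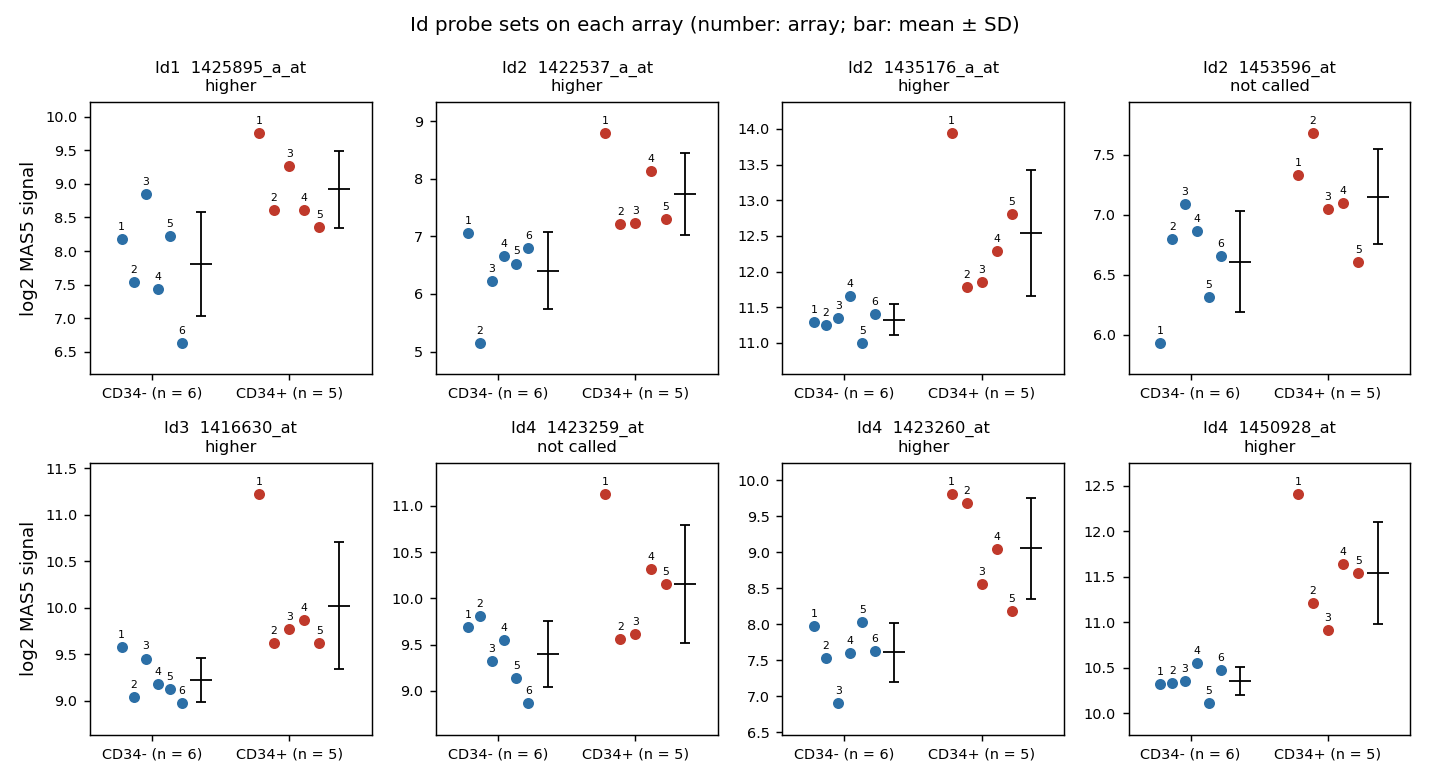
Log2 MAS5 signal (y axis) of the 8 Id probe sets on each CD34- array (blue, n = 6) and CD34+ array (red, n = 5), with the array number beside each point and the mean ± SD as a black bar. On 7 of the 8 probe sets CD34+ array 1 is the highest of the CD34+ arrays.

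CD34+ array 1 was the highest CD34+ array on 7 of 8 Id probe sets, on 5 of 15 probe sets of the other members and on 28.2% of all tested probe sets. Against the CD34- mean of each probe set, the median of the 8 Id probe sets was 2.03 on CD34+ array 1 and 0.81, 0.55, 0.94 and 0.67 on CD34+ arrays 2 to 5, against -0.17 to 0.32 on the 6 CD34- arrays. All 5 CD34+ arrays thus lay above all CD34- arrays by this measure, array 1 by the most. In a fit without CD34+ arrays 1 and 2, which hold the highest actin ratios, the 8 differences ran from 0.31 to 1.15 with 4 calls. In one without CD34+ arrays 1, 2 and 3, chosen after the data were seen, they ran from 0.24 to 1.32 with 3 calls. With the actin ratio as a covariate all 8 stayed positive, with a median of 0.65 and a range of 0.17 to 0.94, but none was called. In that fit 149 of all 20967 probe sets were called, and the median SE of the Id probe sets went from 0.29 to 0.42.

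**Figure D3:**
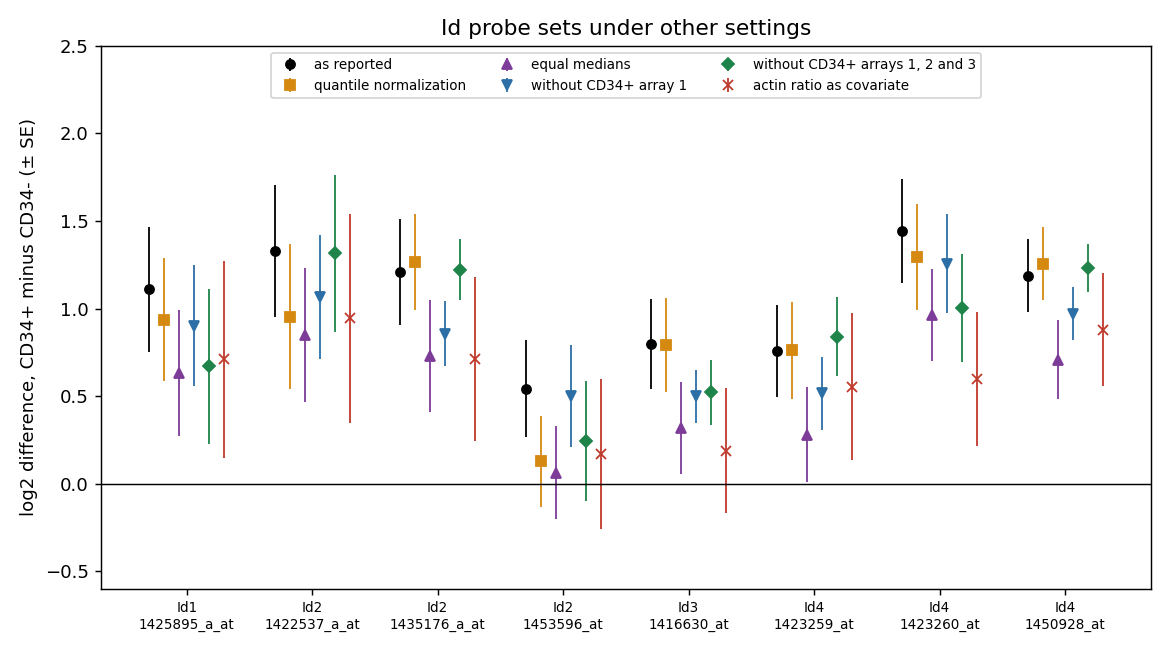
Log2 difference ± SE (y axis) of each Id probe set (x axis) as reported and under 5 other settings. All points lie above 0, and those of the fits with equal medians or with the actin ratio as a covariate lie lower than the reported ones.

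The promoters of the Id genes that were called higher are shown for elements that Smad proteins are known to bind in BMP-responsive genes. These are GC-rich elements, such as GGCGCC, and the short Smad box, CAGAC or its reverse complement GTCTG. The sequences are the 250 bases before the gene start, from RefSeq on build GRCm38.p6, 5′ to 3′ on the strand of the gene, with these elements in capitals. The table held promoters of 7 of the 10 genes, and Id1, Smad7 and Bambi were not among them. Id2 is at chr12:25096093-25096342 (minus strand), Id3 at chr4:136143572-136143821 (plus strand) and Id4 at chr13:48260866-48261115 (plus strand).
Id2: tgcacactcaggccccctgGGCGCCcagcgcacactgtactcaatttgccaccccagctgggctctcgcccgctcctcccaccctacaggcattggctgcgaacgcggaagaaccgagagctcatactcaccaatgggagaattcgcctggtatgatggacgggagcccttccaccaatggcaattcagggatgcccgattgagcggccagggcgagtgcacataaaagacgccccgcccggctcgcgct
Id3: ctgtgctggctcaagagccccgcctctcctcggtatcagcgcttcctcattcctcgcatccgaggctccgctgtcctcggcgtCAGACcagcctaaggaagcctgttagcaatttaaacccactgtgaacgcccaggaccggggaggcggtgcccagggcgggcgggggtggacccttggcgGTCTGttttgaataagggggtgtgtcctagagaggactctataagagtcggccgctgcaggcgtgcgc
Id4: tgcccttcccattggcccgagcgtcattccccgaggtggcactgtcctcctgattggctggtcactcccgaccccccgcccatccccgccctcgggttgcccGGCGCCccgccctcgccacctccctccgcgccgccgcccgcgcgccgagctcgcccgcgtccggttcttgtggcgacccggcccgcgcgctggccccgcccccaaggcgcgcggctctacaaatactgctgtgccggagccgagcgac

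Both strands were searched. GGCGCC was found once in the Id2 window, its first base 231 bases before the start, and once in that of Id4, 148 bases before the start. The Id3 window held CAGAC 167 bases and its reverse complement 68 bases before the start, and no GGCGCC. Among the other members, 1 of the 3 Smad5 starts and Bmpr1a also had GGCGCC, another Smad5 start had CAGAC 21 bases before it, and Smad1 and Smad6 had neither element. GGCGCC occurs in 9.59% and CAGAC in 42.2% of the 32851 promoter windows of this length. The joined element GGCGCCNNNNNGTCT was in none of the member windows and in 0.07% of all. The Id windows were 62.8% (Id2), 62.8% (Id3) and 75.6% (Id4) G or C, against a median of 52.4% over all windows. This was not particular to the Id genes, since the other members had 60% to 68.4% (Smad5), 63.6% (Smad1), 66.8% (Smad6) and 78.8% (Bmpr1a). These matches describe letters in a window and not bound sites.

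Smad1 and Smad5, the signal-carrying Smads of the pathway, each had probe sets with differences of both signs, but only 1 of each gene was called. For Smad1 the probe set 1459843_s_at, whose suffix marks probes shared by several transcripts and for which the annotation gives no accession, had 13.22, 12.79, 13.00, 12.70 and 12.89 on CD34+ arrays 1 to 5 and 11.91 to 12.34 (median 12.12) on CD34- arrays. The fractions were apart on every array, and the difference of 0.80 (SE 0.13, limma adjusted p = 0.00101) was the one with the smallest p of all members, a fold of 1.74. On 1448208_at the CD34+ arrays gave 11.89, 11.92, 11.30, 12.25 and 12.22, of which 3 were below the CD34- range of 12.17 to 12.38. That difference was -0.36 (SE 0.15, limma adjusted p = 0.101) and was not called. On 1416081_at both fractions spread widely, from 8.36 to 10.26 in CD34+ and 8.40 to 10.08 in CD34- cells, with a difference of -0.27 (SE 0.36, limma adjusted p = 0.616). Within each array, the log2 signal of 1459843_s_at minus that of 1448208_at was 0.45 to 1.70 in CD34+ and -0.37 to 0.12 in CD34- cells, so that the ratio of these probe sets did not overlap between fractions.

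For Smad5 the brightest probe set, 1433641_at, was nearly level between the fractions. It had 11.83, 11.49, 11.83, 11.44 and 11.31 on CD34+ arrays 1 to 5 and 11.29 to 11.59 (median 11.44) on CD34- arrays, with a difference of 0.13 and a 95% confidence interval of -0.14 to 0.41 (limma adjusted p = 0.472). The dimmer 1421047_at was called lower, with 8.48, 8.47, 8.73, 8.63 and 9.05 on CD34+ arrays and 8.92 to 9.77 (median 9.33) on CD34- arrays. Of the CD34+ arrays 4 lay below the whole CD34- range, and array 5 was above the lowest CD34- array. The difference was -0.66 (SE 0.17, limma adjusted p = 0.0154), which is 1.59-fold lower in CD34+ cells, and it was -0.53 (limma adjusted p = 0.068) without CD34+ arrays 1 and 2. The third, 1451873_a_at, differed by 0.30 (SE 0.25, limma adjusted p = 0.395) and by -0.07 after quantile normalization.

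The inhibitory Smads differed by probe set too. For Smad7, 1443771_x_at had 9.37, 9.01, 7.59, 9.29 and 8.40 on CD34+ arrays 1 to 5 and 6.72 to 7.34 (median 7.08) on CD34- arrays. Every CD34+ array was higher than every CD34- array, CD34+ array 3 by the least. The difference of 1.65 (SE 0.29, limma adjusted p = 0.00207), a fold of 3.13, was the highest of the 23. The suffix of this probe set marks probes that may also match other sequences, and the annotation gives it no accession. The other Smad7 probe set, 1423389_at, had 8.81, 9.05, 8.62, 8.39 and 8.53 on CD34+ and 8.35 to 8.74 on CD34- arrays, a difference of 0.13 with a 95% confidence interval of -0.21 to 0.46 (limma adjusted p = 0.583). The log2 ratio of 1443771_x_at to 1423389_at was -1.03 to 0.91 on CD34+ arrays and -1.78 to -1.21 on CD34- arrays, again without overlap. Among the 23 pairs of tested probe sets of the same member gene, these pairs of Smad1 and Smad7 were the 2 whose ratio did not overlap between fractions, and the difference between probe sets was not tested. For Smad6 (1422771_at), whose CD34- mean was under the brightness filter and which was tested through its CD34+ arrays, the log2 signal was 7.82, 6.47, 6.82, 5.89 and 6.64 on CD34+ arrays and 5.59 to 6.50 (median 5.97) on CD34- arrays. The difference of 0.72 (SE 0.35, limma adjusted p = 0.151) was not called and was 0.45 without CD34+ array 1. Values under the 40th percentile of their array were found on 2 of 5 CD34+ and 4 of 6 CD34- arrays. With such values raised to that percentile the difference was called (0.76, limma adjusted p = 0.0252). That percentile was itself higher on CD34+ (6.33 to 6.88) than on CD34- arrays (5.95 to 6.17). Raising dim values thus sets the fractions apart by itself, and nothing is drawn from this call. After quantile normalization the Smad6 difference was 0.22 (limma adjusted p = 0.706).

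**Figure D4:**
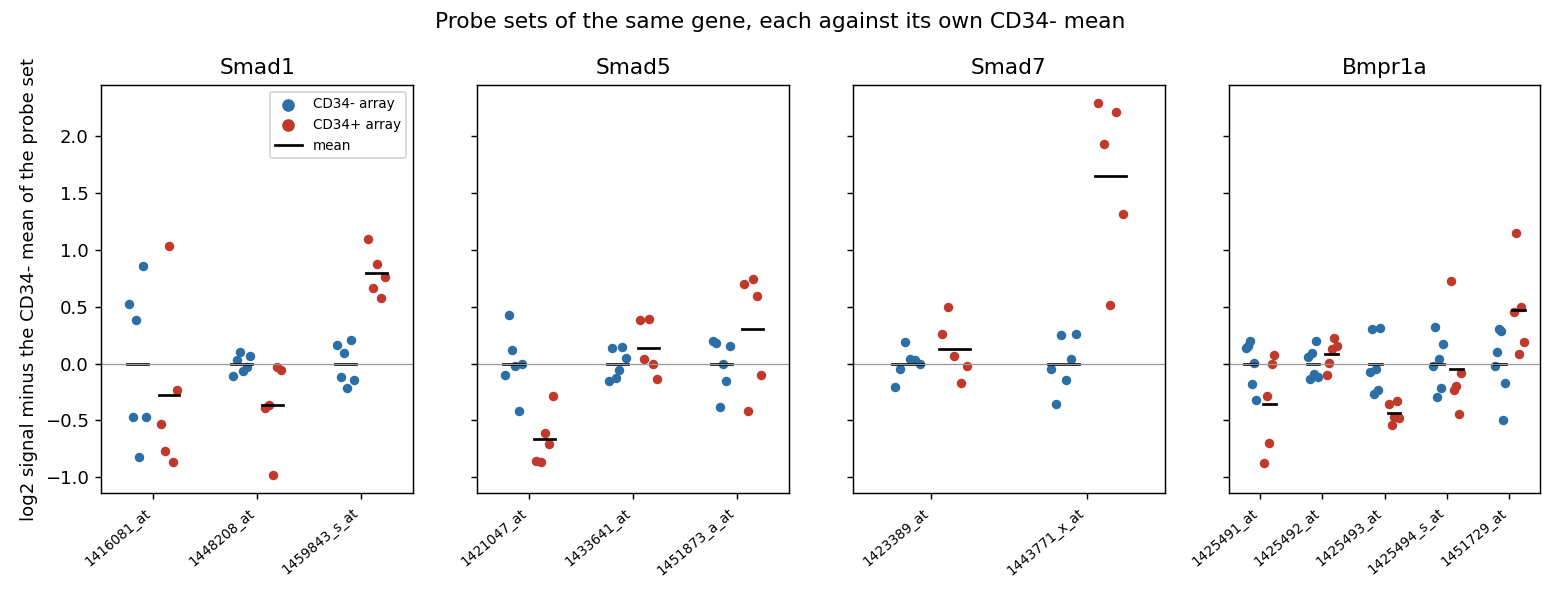
Log2 signal of each array minus the CD34- mean of the same probe set (y axis) for the tested probe sets of Smad1, Smad5, Smad7 and Bmpr1a (x axis), CD34- arrays in blue (n = 6), CD34+ arrays in red (n = 5) and group means as black lines. For Smad1 and Smad7 a single probe set is shifted upwards (0.80 and 1.65), while the others of the same gene lie at or below 0.13.

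Bmpr1a, the type I receptor, has 6 probe sets, and its brightest showed no difference that passed the test. On 1425492_at the log2 signal was 12.05, 12.15, 12.28, 12.37 and 12.30 on CD34+ arrays 1 to 5 and 12.01 to 12.35 (median 12.13) on CD34- arrays. The ranges nearly coincided, and the difference was 0.08 with a 95% confidence interval of -0.15 to 0.31 (limma adjusted p = 0.611). One probe set, 1425493_at, was called lower, with 9.66, 9.48, 9.55, 9.69 and 9.54 on CD34+ arrays and 9.75 to 10.33 (median 9.96) on CD34- arrays. These did not overlap, but the gap between the closest arrays was small. The difference was -0.44 (SE 0.14, limma adjusted p = 0.0428), 1.35-fold lower in CD34+ cells, and the call was lost without any one of CD34+ arrays 2 to 5 or CD34- arrays 1, 2, 4 and 6, with adjusted p of at most 0.0934. Of the others, 1451729_at differed by 0.47 (SE 0.22, limma adjusted p = 0.13), 1425491_at by -0.36 (SE 0.20, limma adjusted p = 0.216) and 1425494_s_at by -0.05 (SE 0.19, limma adjusted p = 0.887). The sixth, 1445413_at, was among the dimmest 3.18% of probe sets, with log2 signals of 1.21 to 5.15, and was not tested.

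Bambi (1423753_at), the decoy receptor, had a log2 signal of 8.34 on CD34+ array 1 and of 6.79 to 7.01 on the other 4 CD34+ arrays. On the CD34- arrays it was 7.04, 3.88, 6.93, 5.66, 6.94 and 5.92. CD34- arrays 1, 3 and 5 thus lay at the level of CD34+ arrays 2 to 5, and the other 3 were dim, under the 40th percentile of their array. The difference of 1.17 (SE 0.52, 95% confidence interval 0.05 to 2.29, limma adjusted p = 0.122) was not called, and it was 0.89 without CD34+ array 1. Some other members split the CD34- arrays alike. Id1 had 8.18, 8.85 and 8.23 on CD34- arrays 1, 3 and 5, and 7.53, 7.43 and 6.63 on 2, 4 and 6. Both Smad1 1416081_at and 1459843_s_at and Bmpr1a 1425492_at were also higher on arrays 1, 3 and 5, and Bmpr1a 1425493_at was lower. Other member probe sets, such as Id4 1450928_at, did not show this split, and its cause was not tested.

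The rest of the pathway was followed in gene lists, each gene by its brightest probe set in the same fit. As background for these lists and the cell marker lists below, 11.0% of all tested probe sets were called higher and 9.77% lower. In the fit with 1 probe set a gene, the brightest, 1350 of 10916 were higher and 1347 lower. Of 10 genes for receptors and co-receptors, 2 were higher, 1 lower and 7 not called, with a median difference of -0.01. Those called were the type II receptor gene Acvr2a (0.49, SE 0.14, limma adjusted p = 0.0276), the BMP co-receptor gene Rgmb (-1.29, SE 0.27, limma adjusted p = 0.00582) and Neo1, which encodes a receptor of the Rgm proteins (0.62, SE 0.12, limma adjusted p = 0.00453). The other Acvr2a probe set and 2 of 4 others of Rgmb were called the same way, and none of 4 others of Neo1 was, while 1 other of Rgmb and 1 of Neo1 had the opposite sign. Of 14 tested Smad partners and regulators none was higher and 3 were lower, with a median of -0.27. These were Smad2, a signal-carrying Smad of TGF-beta (-0.77, SE 0.14, limma adjusted p = 0.00273), and the ubiquitin ligase genes Smurf1 (-0.62, SE 0.20, limma adjusted p = 0.0422) and Nedd4l (-0.42, SE 0.13, limma adjusted p = 0.0394). Of 2 other tested Nedd4l probe sets, 1 had the opposite sign (1.00, SE 0.31, limma adjusted p = 0.0335). It passed the filter only through the CD34+ arrays (mean 6.82 against 5.82), so its call is given as a description. The remaining one differed by -0.21 (SE 0.21) and was not called, so that the probe sets of Nedd4l had no single direction. The shared partner Smad4 differed by -0.25 (SE 0.20) and was not called, and Smad9 was under the brightness filter.

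Of 14 ligand and antagonist genes 8 were bright enough to test, of which 2 were higher, 2 lower and 4 not called (median -0.20). The ligand gene Bmp4 was lower (-1.20, SE 0.24), as was the BMP-binding protein gene Twsg1 (-0.72, SE 0.22), while the antagonist gene Grem1 (3.81, SE 0.35) and Fstl1, which encodes a follistatin-like secreted protein (4.28, SE 0.59), were higher. Another Twsg1 probe set had the opposite sign. Of 5 tested genes listed as further BMP targets, Hey1, a Notch and BMP target (1.59, SE 0.24), was higher and Gata3, a factor of the inner root sheath and epidermis (-1.12, SE 0.28), lower. Msx1 (0.53) and Msx2 (0.55), homeobox targets of BMP, were not called (limma adjusted p = 0.12 and 0.095). Of 6 genes listed as partners of Id proteins, those of the E proteins Tcf4 (0.71, SE 0.15) and Tcf12 (0.73, SE 0.17), which Id proteins bind, were higher, the Ets factor gene Ets2 (-1.15, SE 0.22) was lower, and the E protein gene Tcf3 was not called (0.09, SE 0.15). Of 4 other tested probe sets each, 2 of Tcf4 and 2 of Tcf12 were also called higher, and 1 of Tcf4 had the opposite sign. The listed gene Ets1 was not called by its brightest probe set (-0.91, SE 0.37). Of its 3 other tested probe sets 1 was called lower (-2.01, SE 0.28, limma adjusted p = 0.000476) and 1 had the opposite sign.

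Markers of other cells of the skin also moved with the fractions, and in such samples a change in the number of cells of a type and a change in RNA per cell cannot be told apart. Of 8 tested genes of T cells none was called higher in the CD34+ fraction and 6 were lower, among them Cd7, which passed the filter only through the CD34- arrays (5.10 against 8.94). The summed signal of all 9 T cell genes with a probe set was 9.41 to 11.67 on CD34+ and 11.93 to 12.80 on CD34- arrays (log2). Of 6 fibroblast genes Col1a2 (3.49, SE 0.26), Pdgfra (1.59, SE 0.44) and Dcn (1.53, SE 0.24) were higher. Col3a1 passed the filter only through the CD34+ arrays (mean 8.42 against 4.25), so its call is given as a description. The summed signal of the 6 was 11.59 to 13.09 against 8.93 to 9.74 (log2), while Col1a1 and Lum were under the brightness filter. For antigen presenting and myeloid cells 3 of 7 tested genes were higher, with a summed log2 signal of the 8 listed genes of 12.41 to 13.84 against 11.93 to 12.68. Endothelial cells, in which Id1 and Id3 are known to be abundant and which carry CD34, had 6 of 7 markers under the filter, Pecam1 at a mean log2 signal of 5.03 in CD34+ and 2.94 in CD34- cells and Cdh5 at 4.44 and 4.00. Of the remaining lists, the sums of smooth muscle and mast cells also take in genes under the filter. Smooth muscle had 1 of 2 tested genes higher (summed log2 signal 9.07 to 12.08 against 8.40 to 9.11). Of 6 melanocyte genes Mitf was higher (1.42, SE 0.33) and 5 were not called, with a median difference of -0.46 over the list. Their summed log2 signal was 12.86 to 13.75 against 12.19 to 14.64. For mast cells Kit, the 1 of 6 genes bright enough to test, was lower (summed log2 signal of the list 8.87 to 9.54 against 9.38 to 10.43). Of the keratinocyte lists, 2 of 6 basal genes were lower and 2 of 6 suprabasal genes higher. The part of these cells in the Id differences was not tested.

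The patterns most like those of the 3 members with the smallest p were sought over the 11 arrays, as the smallest root mean square difference between profiles centred on their own mean. For Smad1 1459843_s_at, whose own profile had a root mean square of 0.43, they were Fip1l1 (0.08) and Lrpap1 (0.12). For Smad7 1443771_x_at (0.95) they were Pfn2 (0.26) and the long non-coding RNA gene Mir99ahg (0.29). For Id4 1450928_at (0.69) they were Hoxc8 (0.13) and Ndrg4 (0.14).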

How the data were processed

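The deposited values are log2 signals, 1 per probe set and array. The submitters' processing notes name MAS5, and its version is not given here. Back in linear units, the mean after trimming 2% from each end was 500.00 on all 11 arrays, and the values were used without further normalization. The median log2 signal still did not overlap between fractions, with 6.71 to 7.23 on CD34+ and 6.36 to 6.51 on CD34- arrays. With no brightness filter the median difference was 0.21, so that differences of dim probe sets depend on the scaling. After quantile normalization the dim members Id2 1453596_at, Smad6 and Bambi differed by 0.13, 0.22 and 0.76. No detection calls were used, so a low value is dim and not absent. Of 45101 probe sets, 64 were controls, 932 had several symbols and 9160 had none. Of the 34945 with 1 symbol, 34741 were matched by gene identifier to GRCm38.p6 names. Those with a mean log2 signal above 6.06 (the brightest 60%) were tested in limma 3.58.1 (R 4.3.3) with an intensity trend and Benjamini-Hochberg adjustment over all tested. On simulated data the limma step was checked for recovery of known changes. The number of arrays limits the precision, and the median SE was 0.22. Members and lists were chosen with earlier results of these data known. To be named were the members, genes with the most similar patterns and the called genes of each list, up to 4 in each direction. Krt5, Cd34, Smad4, Smad9, Msx1, Msx2, Tcf3, Ets1 and individual cell type markers were named after their values were seen. Alternatives concerned scaling, filters, an offset of 50, dim values, 1 probe set a gene, moderation, array weights, the threshold, the replicate block, the actin ratio and left-out arrays.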

Additional observations from a re-analysis of the deposited data

Results flagged for a closer look

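In 48 sets of values, each a member probe set in 1 fraction, 3 held an array far from the others, and chance flags about 1 set in 20. On CD34+ array 1 Id3 (1416630_at) had a log2 signal of 11.22, with 9.87 as the next highest CD34+ value, and Bambi (1423753_at) had 8.34, with 7.01 as the next highest. On CD34- array 5 the untested Bmpr1a probe set 1445413_at had 5.15, with 2.58 as the next highest.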

How the results depend on the processing

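As reported, 8 member probe sets were called higher, 2 lower and 4344 of all tested in either direction. The members higher and lower were 5 and 1 after quantile normalization (1400 higher and 2174 lower of all tested). They were 3 and 4 with equal medians (8914 of all called) and 5 and 0 with 1 probe set a gene (2697). At an adjusted p under 0.01 they were 4 and 0 (1511), and with the actin covariate 0 and 0 (149). They were 6 and 0 without CD34+ arrays 1 and 2 (2881) and 5 and 0 without CD34+ arrays 1, 2 and 3 (2809), the latter added after the data were seen. The lower calls came to 1 with no brightness filter, no intensity trend or array weights. Leaving out 1 array at a time gave 6 to 8 higher, 1 to 2 lower and 2971 to 4580 of all. The replicate block left 8 higher, 0 lower and 3034 of all, Smad5 1421047_at losing its call (limma adjusted p = 0.0611). Deviations of same-numbered arrays correlated at 0.02 to 0.18, and only 1 of the 5 pairs correlated best with its own number, so that the numbers were not taken to pair the arrays.

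Quantile normalization moved the median difference of all tested to -0.09 and equal medians to -0.46, from 0.02, and the share of higher calls from 52.9% to 39.2% and 7.57%. Leaving out the dimmest 60% gave a share of 42.1% and the actin covariate 83.2%. The Id median less that of all tested was 1.13 as reported, 1.04 after quantile normalization and 0.61 with the actin covariate; equal medians cannot change it. The Id differences were positive wherever tested (6 of 8 with the dimmest 60% left out, 4 with 1 probe set a gene). Smad1 1459843_s_at and Smad7 1443771_x_at, the latter in neither of those fits, also kept their sign and lost their calls with the actin covariate (limma adjusted p = 0.171 and 0.21). With equal medians that of Smad1 1459843_s_at was 0.31 (limma adjusted p = 0.125).

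Signs that turned were all of differences not called as reported. With equal medians they were Smad5 1433641_at (-0.35) and 1451873_a_at (-0.18), Smad7 1423389_at (-0.35) and Bmpr1a 1425492_at (-0.40) and 1451729_at (-0.0059), by the shift that this scaling gives all probe sets alike, so that these turns say nothing of the single probe sets. In the other settings the cause was not tested. After quantile normalization they were Smad5 1451873_a_at (-0.066) and Bmpr1a 1425494_s_at (0.017). With the actin covariate they were Smad5 1433641_at (-0.14), Smad6 (-0.079), Smad7 1423389_at (-0.17) and Bmpr1a 1425491_at (0.20). Smad7 1423389_at also turned with array weights (-0.0019) and without CD34+ arrays 1 and 2 (-0.041). Without CD34+ arrays 1, 2 and 3, Smad7 1423389_at (-0.094), Smad5 1433641_at (-0.073) and Bmpr1a 1425491_at (0.0345) turned. Bmpr1a 1425494_s_at ran from -0.24 to 0.053 on leaving out 1 array.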
